A study of Mus musculus with 17 samples.

Results

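The complement genes C4, C9 and C3 were followed through every array of a comparison of Lean and Fat mouse liver. They were found by the name of their probes in the scanner files and made up 3 of the 284 mouse gene probes on the array, with 3 spots each on every array. C4 is the probe ST_Mm_285, which stands for the gene C4b, C9 is ST_Mm_287 and C3 is ST_Mm_284. They were chosen by their mean Lean over Fat ratios on these arrays, since those of C4 and C9 were the most extreme of all probes and opposite in direction, so that these ratios are given as a description with no test. The nearest other probes were Abcb11, the bile salt export pump, with a mean log2 ratio of 0.57, and G6Pase, glucose-6-phosphatase, with -0.71.

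Lean and Fat are inbred lines that were bred apart for low or high body fat over more than 60 generations, from a common base population made of CBA, JU and CFLP mice. The 10 Lean and 10 Fat animals were males of 14 weeks of age on a chow diet, killed after a fast of 4 hours and given no other treatment, and liver total RNA of each was labelled singly. Each line is a single selected line, so selection and chance fixation cannot be told apart, and the cages usually held brothers. Each array compared 1 Lean with 1 Fat mouse, and the 17 arrays covered 10 pairs, here numbered 1 to 10, of which 7 were hybridised in both dye orientations and pairs 4, 5 and 7 in 1 orientation. Log2 ratios are Lean over Fat throughout, and a value of 1 is a doubling.

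Complement is a cascade of plasma proteins, made for the most part by hepatocytes, that marks microbes and damaged cells and can lyse them. C4 belongs to the classical and lectin pathways, where its cleaved form joins that of C2 to make the enzyme that cleaves C3. C3 is the protein on which all routes of activation meet. C5 starts the terminal steps, and C9 is the last component to join the membrane attack complex, in which many copies of it form the pore. C4bp, the C4 binding protein, and Serping1, the C1 inhibitor, hold the classical pathway back. C4b, C2 and C4a, a transcribed pseudogene next to C4b that shares its older names, lie close to each other on chromosome 17 of the RefSeq annotation of GRCm38.p6, which also carries C3, while C9 lies on chromosome 15. C4a is near-identical to C4b in sequence, and a cDNA probe named C4 may bind the RNA of both, which these arrays cannot tell apart.

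Between 34.9% and 78.8% of an array's gene spots exceeded background in the Lean and the Fat channel alike. The lowest percentage belonged to the array of pair 10 with Lean in Cy3, which stood apart from the others. Its mean local background in the Fat channel was 5157, against 42.3 to 202 on the other arrays, and 89 of its 855 gene spots had a Fat background over 1000. After background correction its median Fat intensity was 2902 above that from plain subtraction, against 62.5 to 336 on the other arrays. This exceeded the Fat intensity of C4 itself there, 467, so the ratios of this array depend on the correction used. The main values that rest on this array are also given without it. C4, C9 and C3 were above background in both channels on 17 of 17 arrays, and so were 7 of 8 hepatocyte markers, among them Alb1, Apoa1 and Fgb, whereas Cyp7a1 was above it in 10 Lean and 11 Fat channels. The summed level of the hepatocyte markers, on a log2 scale relative to the median gene spot, ranged from 7.25 to 8.73 in Lean and from 7.22 to 8.68 in Fat mice, with the Lean mouse above the Fat one in 8 of 10 pairs. Levels were summed before the log was taken, so Alb1, with a median level of 7.32 in Lean and 7.28 in Fat mice, weighed most. Of these markers 1 of 8 passed the test between lines, Cyp8b1, at 0.52 (adjusted p = 0.00208, limma), where 3.52% of the 284 probes did. At an unadjusted p under 0.05, Hpxn (0.28, p = 0.00242), Fgb (0.30, p = 0.0248) and Apoa2 (0.17, p = 0.0118, all limma) passed too, where 15.1% of probes did. Each of the 8 had a higher mean in Lean mice, as did 69.4% of the 284 probes. The macrophage marker Msr1 was above background in at most 2 of 17 arrays with either of its probes, and Vcam1 of endothelium, Pfkm of muscle, and Lep, Retn and Lipe of adipocytes in at most 5. Adipoq was above it in 12 Lean and 11 Fat channels, and none of these other markers passed the test between lines. The summed level of the 4 adipocyte markers ranged from 1.32 to 2.35 in Lean and from 1.14 to 2.35 in Fat mice, and that of the Msr1 probes from -0.56 to 0.76 and from -0.31 to 0.50. Since most of these probes were seldom above background, the sums lie near the floor and say little about the cells. The part of these markers in the ratios below was not tested. In bulk liver RNA fewer cells of a type and less RNA per cell cannot be told apart.

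C4 RNA was higher in the Lean mouse in every pair. The lowest log2 ratio was 0.51 in pair 10, the median 1.33 and the highest 2.12 in pair 1, with a mean of 1.34 ± 0.43 (SD, n = 10 pairs), or 2.53-fold. After pair 1 came pair 2 at 1.68 and pair 4 at 1.62, while pairs 5, 6, 8 and 9 lay between 1.28 and 1.34. This order mixes dye orientations, since pairs 4 and 5 rest on Lean in Cy5 alone. In that orientation pair 6 was the highest at 1.67, followed by pair 4 at 1.62 and pair 1 at 1.61. All 17 arrays and all 51 spots had a ratio above 0. The array of pair 10 with Lean in Cy3 had the smallest ratio, 0.09, where the other array of that pair gave 0.94. Without the first of these, pair 10 was still the lowest pair, at 0.94, and the mean was 1.38 ± 0.35 (SD, n = 10 pairs). The 3 spots of the probe had a median SD of 0.06 per array and at most 0.17, while the arrays of a dye-swapped pair differed by 0.39 in pair 2 at the least and by 1.01 in pair 1, where Lean in Cy3 gave the higher ratio.

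C9 RNA was lower in the Lean mouse in every pair. Its log2 ratio was -1.54 at the lowest, in pair 3, had a median of -1.31 and was -0.71 at the highest, in pair 8. The mean was -1.23 ± 0.26 (SD, n = 10 pairs), or 2.34-fold higher in Fat mice. The ratios of pairs 1 to 7 lay close together, between -1.54 and -1.27, and those of pairs 8, 9 and 10 were nearer to 0, at -0.71, -1.03 and -0.93. These values mix dye orientations, since pairs 4 and 5 rest on Lean in Cy5 alone and pair 7 on Lean in Cy3 alone. With Lean in Cy5 alone pair 4 was at -1.27 and pair 10 at -1.28, so the groups did not separate there. All 17 arrays and all 51 spots had a ratio below 0. The array nearest to 0 was that of pair 8 with Lean in Cy3, at -0.33, against -1.09 on the other array of the same pair. On the odd array of pair 10 the ratio was -0.57, and without this array pair 10 stood at -1.28 and the mean at -1.26 ± 0.23 (SD, n = 10 pairs).

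C3 RNA showed no common direction. Its log2 ratios ran from -0.20 in pair 5 over a median of -0.03 to 0.36 in pair 1, with a mean of 0.00 ± 0.18 (SD, n = 10 pairs). The ratio was above 0 in 5 pairs and below it in 5, on 9 and 8 arrays, and in 26 and 25 spots. Without the odd array pair 10 went from 0.04 to -0.16, so that it changed sides, and the mean was -0.02 ± 0.19 (SD, n = 10 pairs). The C3 spots were bright, and 4 of them on 2 arrays were saturated, 3 in the array of pair 6 with Lean in Cy5 and 1 in that of pair 9 with Lean in Cy3.

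**Figure D1:**
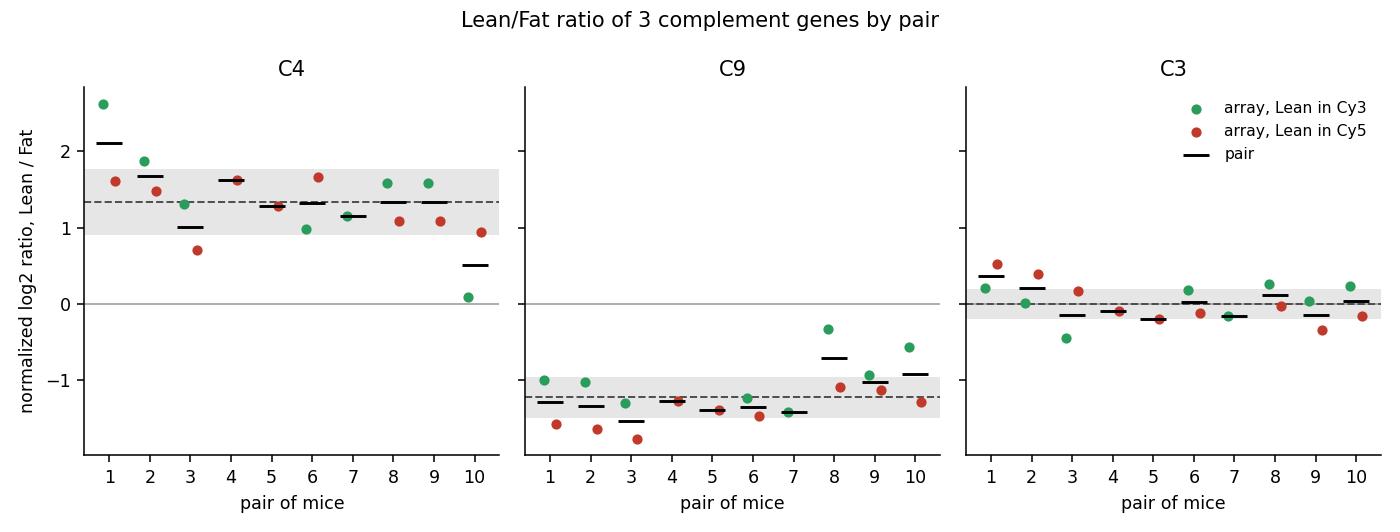
Normalized log2 ratio, Lean over Fat, of C4, C9 and C3 by pair. Points are arrays, coloured by the dye of the Lean mouse, black bars are pair values, the dashed line is the mean over 10 pairs and the band is 1 SD. C4 lies above 0 on 17 of 17 arrays, C9 lies below 0 on 17 of 17, and C3 lies on both sides.

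The opposite directions of C4 and C9 were present within each array, where both genes were read from the same labelled RNA. The C4 ratio exceeded the C9 ratio of the same array on 17 of 17 arrays, by 2.57 at the median. The smallest difference, 0.66, was on the odd array of pair 10, the next smallest was 1.91 on the array of pair 8 with Lean in Cy3, and the largest was 3.62 on that of pair 1 with Lean in Cy3. C3 lay between the other genes on 16 of 17 arrays. The exception was the odd array, where C4 was 0.15 below C3 after background correction and normalization. The background-subtracted intensities there were 159 (Lean) and 467 (Fat) for C4, and 1291 and 9455 for C3. The Fat channel thus exceeded the Lean one by a larger factor for C3, and the value table put C4 above C3, at 0.55 and 0.29. C3 exceeded C9 on 17 of 17 arrays, by 0.58 to 2.11.

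Before normalization the ratios followed the dye. The median ratio of the spike-in controls, RNAs added to both samples, was -2.70 to -0.31 on the 8 arrays with Lean in Cy3 and 0.45 to 2.74 on the 9 arrays with Lean in Cy5. The unnormalized C9 ratio was below 0 on 8 of 8 arrays with Lean in Cy3, from -4.44 to -0.55, but above 0 on 8 of 9 with Lean in Cy5, from -0.85 to 1.86. That of C4 was below 0 on 5 of 8 arrays with Lean in Cy3, from -2.57 to 1.37, and above it on 9 of 9 with Lean in Cy5, from 1.40 to 4.88. Relative to the spike-in median of the same array, unnormalized C4 was higher on 17 of 17 arrays, by 0.09 to 2.31 (0.83 at the least without the odd array), and C9 lower on 17 of 17, by a log2 difference of -1.91 to -0.24. C3 was above the spike-in median on 9 arrays and below it on 8. C4 exceeded C9 on 17 of 17 arrays without normalization too, by 0.78 to 3.83 (1.92 at the least without the odd array), and C4 exceeded C3 on 17 of 17, where it did so on 16 after normalization.

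**Figure D2:**
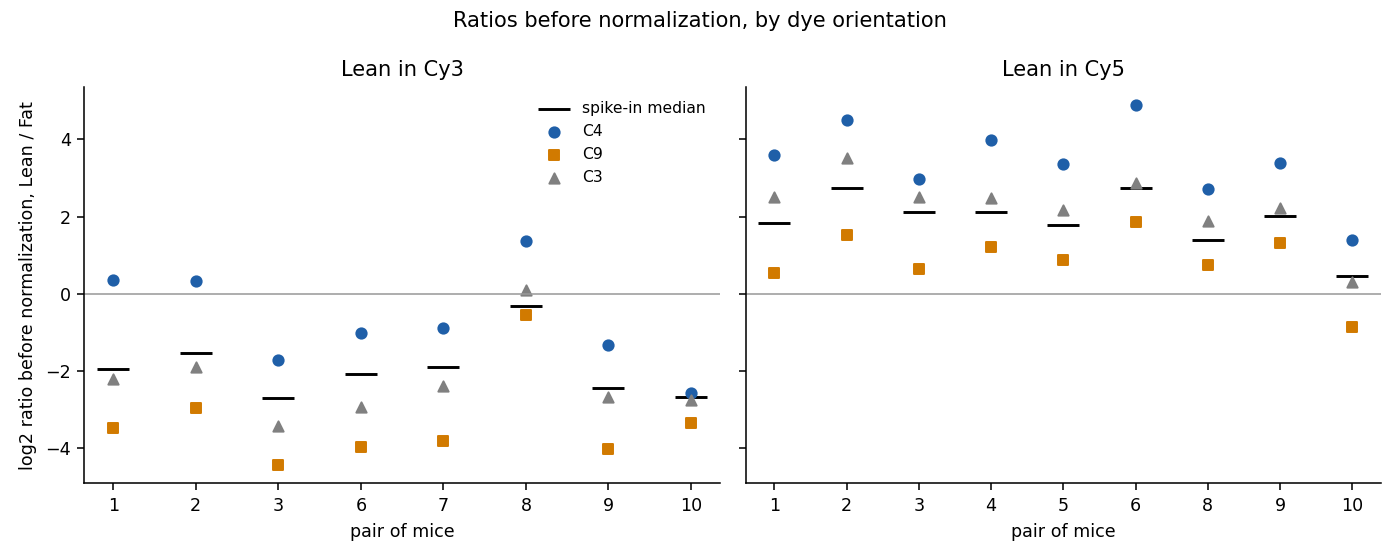
Log2 ratios, Lean over Fat, after background correction but before normalization, of C4, C9, C3 and the median spike-in control, by pair and dye orientation. The spike-ins lie between -2.70 and -0.31 with Lean in Cy3 and between 0.45 and 2.74 with Lean in Cy5, and C4 lies above C9 on each of the 17 arrays.

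The unnormalized ratios of the 2 orientations of a pair were also averaged, which removed the dye in part. The spike-in medians, averaged in the same way, still ranged from -1.10 in pair 10 to 0.61 in pair 2. Over the 7 dye-swapped pairs this mean was 1.35 ± 1.06 for C4, -1.21 ± 0.75 for C9 and 0.01 ± 0.76 for C3 (SD, n = 7 pairs), close to the normalized means and with a far wider spread. C4 was above 0 in 6 of 7 pairs, with -0.58 in pair 10, and C9 was below 0 in 6 of 7, with 0.10 in pair 8. The spike-ins stood at -1.10 in pair 10 and at 0.54 in pair 8, so that C4 and C9 lay on their usual side of them in these pairs too. Without pair 10 the means were 1.67 ± 0.69 for C4, -1.06 ± 0.69 for C9 and 0.21 ± 0.58 for C3 (SD, n = 6 pairs).

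The channel intensities, background-subtracted means of 3 spots, show the same in the scanner's units. In pair 1 with Lean in Cy3, C9 read 1939 in the Lean and 23417 in the Fat channel, and with Lean in Cy5 it read 3208 and 2237. C4 of the same pair read 1934 and 1544 with Lean in Cy3, and 2386 and 145 with Lean in Cy5. Over all arrays the Lean channel was the brighter one for C4 on 9 of 9 arrays with Lean in Cy5 and on 3 of 8 with Lean in Cy3, and for C9 on 8 of 9 and on none of 8. The C4 intensity had a median of 1805 in the Lean channel (159 to 13656) and 372 in the Fat channel (91.5 to 3007). That of C9 had a median of 1939 in the Lean channel (220 to 13627) and 3716 in the Fat channel (1387 to 27681). For C3 the medians were 8913 (1291 to 53490) and 8259 (2848 to 51258). The mean log2 intensity of the C4 spots ranged from 8.77 to 11.25 over arrays, that of C9 from 10.47 to 12.79 and that of C3 from 11.99 to 14.30. Each gene lay within the intensity range of the spike-ins on 17 of 17 arrays, so no ratio was extrapolated from the spike-in fit. Across the 10 pairs the ratio showed no relation to mean intensity that passed a permutation test, with r = 0.13 for C4, 0.06 for C9 and -0.05 for C3 and Spearman's rho = -0.02, 0.18 and -0.32 (raw p = 0.709, 0.858 and 0.888 for r and 0.973, 0.630 and 0.369 for rho, adjusted p of at least 0.888 over the 3 relations). Without the 2 pairs farthest from the median intensity r was -0.10, -0.05 and -0.16. The odd array was left out of this comparison, which was added after the values had been seen.

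**Figure D3:**
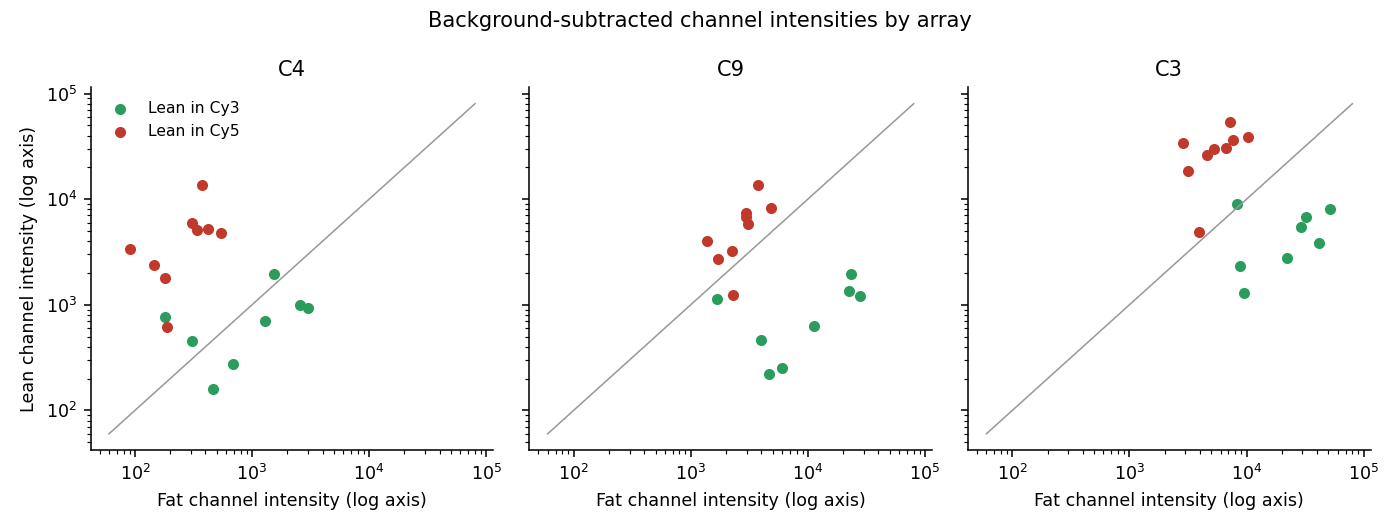
Background-subtracted intensity of the Lean channel against the Fat channel on each array for C4, C9 and C3, on log axes, coloured by the dye of the Lean mouse. The grey line marks equal intensity, which C9 exceeds on 8 of 9 arrays with Lean in Cy5 and on none of 8 with Lean in Cy3.

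The normalized C9 ratio was further from 0 with Lean in Cy5 than with Lean in Cy3 in every dye-swapped pair. In the dye-swapped pairs the C9 ratio was -0.91 ± 0.35 with Lean in Cy3 and -1.42 ± 0.26 with Lean in Cy5 (SD, n = 7 pairs). The difference, Lean in Cy5 minus Lean in Cy3, ran from -0.76 in pair 8 to -0.19 in pair 9 and was below 0 in 7 of 7 pairs (mean -0.51, standard error 0.19). An exact two-sided sign-flip permutation test over the pairs gave p = 0.0156, the smallest p that 7 pairs allow, while limma gave an adjusted p of 0.0728 over all 284 probes. This dye difference depended on the normalization. It was -0.033 under loess on all gene spots (adjusted p = 0.888, limma) and turned to 1.23 when arrays were centred on their median and the spike-in fit was dropped. Without pair 10 it was -0.48. C4 differed by -0.21 between orientations (standard error 0.20, adjusted p = 0.412 from limma, exact sign-flip p = 0.453), from 1.43 ± 0.78 to 1.23 ± 0.36 (SD, n = 7 pairs). Its difference was below 0 in 5 pairs and above it in pairs 6 and 10, and its sign turned under loess on all gene spots and under median centring. C3 differed by -0.01 (standard error 0.19, adjusted p = 0.983 from limma, exact sign-flip p = 0.984), a sign that turned under the same settings. None of the 3 genes passed limma's adjusted threshold for the dye, where 2.11% of the 284 probes did. At an unadjusted p under 0.05, C9 was the 1 gene of the 3 that passed (p = 0.00890, limma), where 37.3% of probes did. The complement gene C5 differed by -0.50 (p = 0.0124, adjusted p = 0.0728, limma), below 0 in 5 of 7 pairs. The direction of C4 and of C9 between lines held in both orientations.

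The dye difference of C3 separated by slide series, the groups of slides that share the start of their slide number. Each pair of mice lies in a single series, so series and mice cannot be told apart. In the 3 dye-swapped pairs of series B, pairs 1, 2 and 3, it was 0.44 ± 0.16 (SD, n = 3 pairs), and in the 4 of series A, pairs 6, 8, 9 and 10, it was -0.34 ± 0.06 (SD, n = 4 pairs). An exact two-sided permutation test gave p = 0.0571 for the difference of -0.78, the smallest p that this design allows, and limma gave an adjusted p of 0.820 over 284 probes. This comparison of series was added after the values had been seen, so its p is a description only. The same full separation by sign was seen in 3 of 284 probes, or 1.06%. C9 had the same sign in both series, at -0.56 ± 0.08 in B and -0.48 ± 0.30 in A, and C4 moved from -0.67 ± 0.32 in B to 0.14 ± 0.73 in A (exact p = 0.629 and 0.229, SD, n = 3 and 4 pairs).

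The mean ratios of C4 and C9 were further from 0 in slide series B than in series A, differences that did not pass an exact test. Here too the series hold different mice, so slides and mice cannot be told apart. C4 was 1.52 ± 0.44 in B and 1.16 ± 0.36 in A (SD, n = 5 pairs each, exact two-sided permutation test p = 0.206). The difference of A from B was -0.36, and -0.27 without the odd array (exact p = 0.238). C9 was -1.37 ± 0.11 in B and -1.08 ± 0.29 in A (SD, n = 5 pairs each, exact p = 0.0952), a difference of 0.29 that was 0.22 without the odd array (exact p = 0.175). C3 was 0.03 ± 0.23 in B and -0.03 ± 0.13 in A (SD, n = 5 pairs each, exact p = 0.603), and the sign of this difference turned without pair 1 and under median centring. The direction of C4 and of C9 held in every pair of both series.

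No relation of the C4 ratio with the C9 ratio was shown across pairs, and 10 pairs cannot show that there is none. Over the 10 pairs, r was -0.20 and Spearman's rho was 0.31 (permutation p = 0.556 and 0.384, the same after adjustment over 3 couples of genes), and r was 0.24 without pairs 1 and 10, the 2 farthest from the C4 median. C4 against C3 gave r = 0.54 and rho = 0.58 (permutation p = 0.111 and 0.0875, adjusted p = 0.332 and 0.248), with r = 0.58 without pairs 1 and 10. With the odd array of pair 10 left out, an alternative chosen after seeing the data, this relation, which had r = 0.36 under loess on all gene spots and 0.22 in the value table (adjusted p = 0.511 and 0.960, permutation), was r = 0.82 and rho = 0.78 (permutation p = 0.00449 and 0.0103, adjusted p = 0.0135 and 0.0308), and again r = 0.58 without those pairs, so that part of it rests on them. Pair 1 had the highest ratio of both genes, and pairs 3, 7 and 10 were among the lower ones in both. C9 against C3 gave r = 0.25 and rho = 0.48 (permutation p = 0.495 and 0.165, adjusted p = 0.556 and 0.248), with r = 0.09 without pairs 8 and 10. The genes of a pair share their arrays and their normalization, and under median centring r was 0.62, 0.79 and 0.92 for these couples. Each slide series holds 5 pairs, too few for a correlation of its own.

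**Figure D4:**
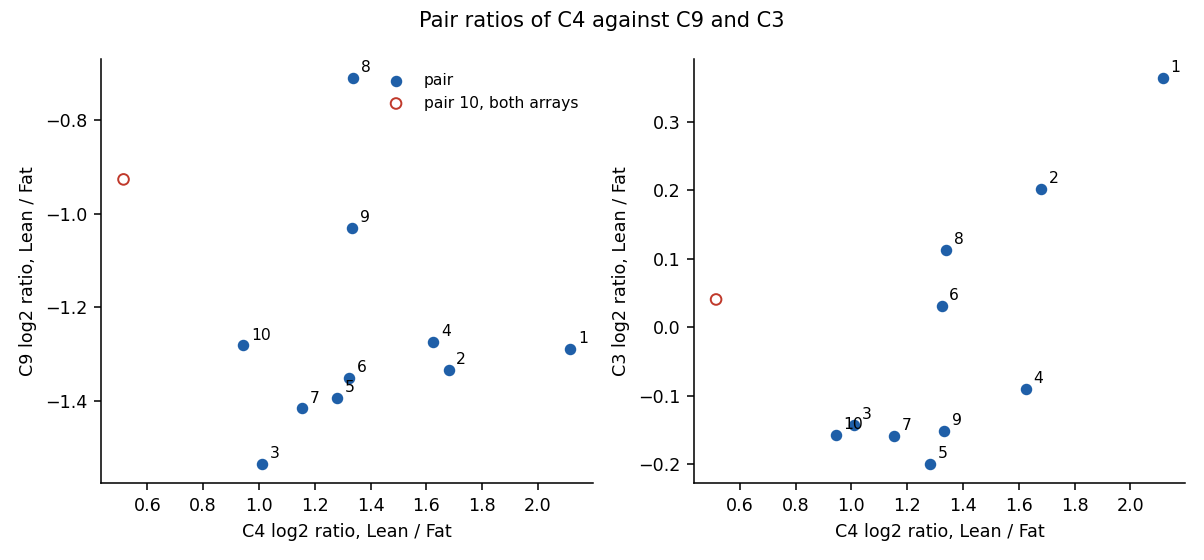
Log2 ratios, Lean over Fat, of C9 (left) and C3 (right) against C4, 1 numbered point per pair. Pair 10 is shown without its odd array, and the open circle gives it with both arrays. The r of C9 against C4 is 0.12 as plotted and -0.20 with both arrays of pair 10. That of C3 against C4 is 0.82 as plotted, 0.54 with both arrays of pair 10 and 0.22 in the value table.

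For none of the genes was the order of the pairs shown to repeat when the same RNA was hybridised again with the dyes exchanged. Over the 7 dye-swapped pairs, the C9 ratio with Lean in Cy3 and that with Lean in Cy5 gave r = 0.77 and rho = 0.86 (exact permutation p = 0.0413 and 0.0238, adjusted p = 0.124 and 0.0714 over the 3 genes), with r = 0.61 without pairs 8 and 10 and r = -0.018 under median centring. In the value table r of C9 was 0.74 and under loess on all gene spots 0.57 (adjusted p = 0.0732 and 0.230, permutation). For C4 r was 0.45 and rho 0.39 (exact permutation p = 0.313 and 0.396, adjusted p = 0.470 and 0.593), and r was -0.12 without pairs 1 and 10. For C3 r was -0.16 and rho -0.18 (exact permutation p = 0.771 and 0.713, adjusted the same), and r was 0.43 without pairs 2 and 3.

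The levels of the lines, read from each mouse's channel, overlapped for each of the genes. The mice of a pair share their arrays, so differences between arrays and between mice cannot be told apart in this overlap. Relative to the median gene spot of the array, on a log2 scale and without the odd array, the C4 level was 1.62 to 3.71 in Lean mice (median 2.66) and 0.47 to 2.28 in Fat mice (median 1.18). Of the Lean mice 7 of 10 lay above all Fat mice. The C9 level was 1.68 to 3.89 in Lean mice (median 2.95) and 3.09 to 5.26 in Fat mice (median 4.17), and 7 of 10 Fat mice lay above all Lean mice. Both mice of pair 7, which share 1 array, had the lowest levels of their line for C9 and C3, and also for C2, C5 and C4bp. Levels of C9 had an SD of 0.72 in Lean and 0.74 in Fat mice, against 0.23 for the ratio within pairs without the odd array. The C3 level was 4.40 to 6.35 in Lean mice (median 5.49) and 4.56 to 6.01 in Fat mice (median 5.33), with only 1 Lean mouse above all Fat mice.

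The deposited value table, normalized by the authors, gave the same directions. There C4 was above 0 on 17 of 17 arrays, from 0.55 to 2.74, and averaged 1.50 ± 0.43 over pairs, and C9 was below 0 on 17 of 17, from -1.82 to -0.32, and averaged -1.34 ± 0.27 (SD, n = 10 pairs). C3 had values on 16 arrays, 9 above and 7 below 0, and averaged 0.03 ± 0.22 (SD, n = 10 pairs). Its missing value was that of pair 6 with Lean in Cy5, the array on which all 3 spots were saturated. On the odd array of pair 10 the table held 0.55 for C4 and -1.14 for C9.

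Of the 4 further complement genes that the array measured, 0 had an adjusted p under 0.05 between the lines (limma, n = 10 pairs), where 3.52% of the 284 probes did. At an unadjusted p under 0.05, C2 and Serping1 passed, 2 of 4, where 15.1% of probes did. C2, the partner of C4 in the enzyme that cleaves C3, had a log2 ratio from -0.46 in pair 4 over a median of -0.11 to 0.11 in pair 8, with a mean of -0.16 (standard error 0.06, p = 0.0224, adjusted p = 0.236, limma). It was below 0 in 9 of 10 pairs and turned to 0.06 under median centring. Serping1 ranged from -0.64 in pair 9 to 0.07 in pair 2 with a median of -0.12, and its mean was -0.15 (standard error 0.07, p = 0.0427, adjusted p = 0.316, limma), with 8 of 10 pairs below 0. C4bp ranged from -0.15 in pair 2 over a median of -0.07 to 0.40 in pair 1, with a mean of -0.02 (adjusted p = 0.826, limma). C5, the product of the gene Hc, ranged from -0.23 in pair 3 over a median of -0.01 to 0.26 in pair 8, with a mean of 0.01 (adjusted p = 0.950, limma). The sign of C4bp turned, to 0.17, under median centring. The median of these 4 genes was -0.09, against 0.04 over all 284 probes. They were above background in 16 or 17 of 17 Lean channels and in 17 of 17 Fat channels. While C4 was higher and C9 lower in Lean mice, C2, C3 and C5 had mean ratios between -0.16 and 0.01.

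**Figure D5:**
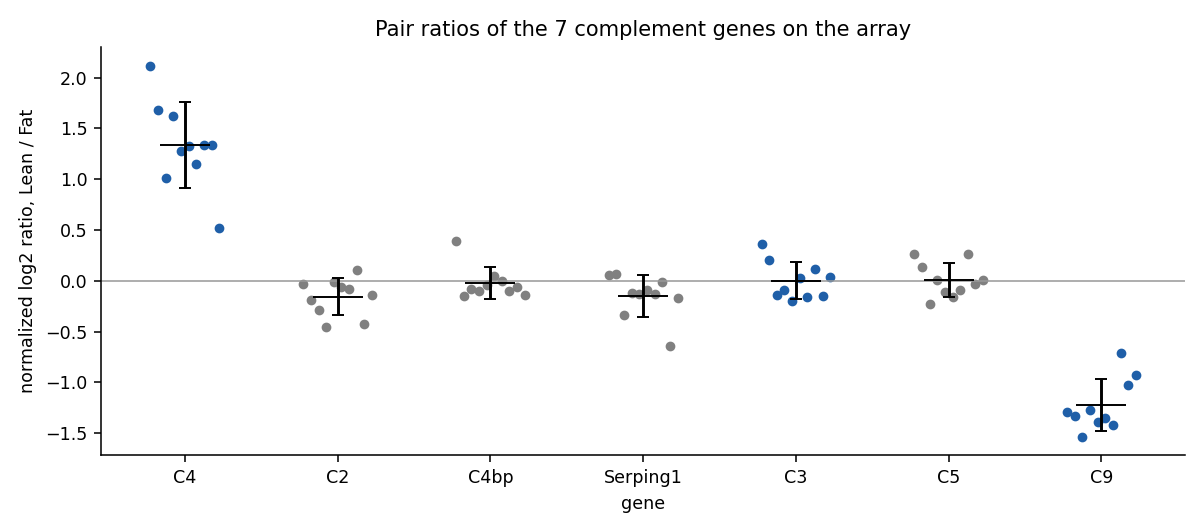
Normalized log2 ratio, Lean over Fat, of the 7 complement genes on the array. Each point is 1 of 10 pairs, the horizontal bar is the mean and the error bar is 1 SD. C4 lies between 0.51 and 2.12, C9 between -1.54 and -0.71, and the other 5 genes have means between -0.16 and 0.01, with C2 below 0 in 9 and Serping1 in 8 of 10 pairs.

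Among the other 283 probes, those whose 10 pair ratios were most like C4 were Adipor2, a receptor of adiponectin, with r = 0.88, and Apoa4, an apolipoprotein, with r = 0.82. Adipor2 had a mean log2 ratio of 0.41 and Apoa4 one of 0.12. Most like C9 were Abcb11, with r = 0.82 and a mean ratio of 0.57, and Cyp2j6, a cytochrome P450, with r = 0.82 and a mean ratio of 0.15. Most like C3 were Hpxn, which encodes the heme-binding hemopexin, with r = 0.81 and a mean ratio of 0.28, and C5, with r = 0.79. These are the highest of 283 values each, over 10 pairs that share arrays, and are given with no test. Without the odd array r was 0.75 and 0.66 for the probes named with C4, 0.52 and 0.78 for those named with C9, and 0.85 and 0.73 for those named with C3.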

How the data were processed

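The authors read each spot's intensity and its local background, in both channels, from the scans with Array-Pro Analyzer, and these unnormalized intensities were deposited. The authors also deposited a table of log2 ratios, normalized with OWNormalize by a LOWESS fit to spike-in controls once spots of low quality had been removed. Arrays of low quality were left out by the authors beforehand. The labels name the channel of each line, and no array was turned.

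Mean intensities were background-corrected by normexp (offset 50) and normalized in limma 3.58.1 (R 4.3.3) by its control method (span 0.3) on luciferase and calibration spike-ins. Spots of a probe, then arrays of a pair, were averaged on the log2 scale. limma tested the mean of all 284 mouse probes over pairs, and the 7 dye-swap differences, two-sided, with Benjamini-Hochberg adjustment at 0.05. Single values were tested by exact permutation, and correlations over 10 pairs with 100000 resamples (SciPy 1.17.1). A spot was above background when it exceeded its background by 2 SDs of it, and a probe when most of its spots did. Steps were tested on simulated arrays, where ratios came out smaller than planted.

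The members, the lists and the tests were chosen with earlier results of these data known. Named genes are the members, the other complement genes, the marker genes, and for each member the 2 probes with the highest r. Abcb11 and G6Pase were also named as the next most extreme, after their values were seen. The alternatives changed the background correction, the normalization, the source, the spots and the pairs. Nothing says that the animals were unrelated, and p-values measure the spread between these pairs, whose number limits the precision.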

Additional observations from a re-analysis of the deposited data

Results flagged for a closer look

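The C9 ratio differed between dye orientations by -0.51 (Lean in Cy5 minus Lean in Cy3), below 0 in 7 of 7 dye-swapped pairs (exact sign-flip permutation test, p = 0.0156), which marked it as a difference between groups of arrays, while limma's adjusted p over all probes was 0.0728. A dye difference was not particular to C9, since 37.3% of the 284 probes had one at an unadjusted p under 0.05 (limma). That of C5 was -0.50 (adjusted p = 0.0728, limma). Under loess on all gene spots it was -0.033 (adjusted p = 0.888, limma). The dye difference of C3 was below 0 in all 4 pairs of slide series A and above 0 in all 3 of series B, a difference of -0.78 between series (exact permutation p = 0.0571). That comparison was added after the values had been seen. The C4bp ratio of pair 1, at 0.40, stood apart from the other 9 pairs by Dixon's criterion. It was the 1 value found in 24 groups of values examined, where chance gives about 1 in 20.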

How the results depend on the processing

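The mean ratios of C4, C9 and C3 stayed within 1 SD of the reported value in each of 24 alternative settings, 2 of them chosen after seeing the data. C4 ranged from 1.16 (slide series A) to 1.62 (plain background subtraction), C9 from -1.40 (Lean in Cy5 only) to -0.98 (Lean in Cy3 only) and C3 from -0.04 (without pair 1) to 0.16 (median centring). None of the other 4 complement genes passed in any of 23 settings. The count of probes that passed, 10, was 6 with plain background subtraction (3 higher and 3 lower), 5 with median centring (3 and 2), 5 with dye-swapped pairs only (3 and 2), 3 in slide series A, 2 in series B, 5 with Lean in Cy3 only and 53 with Lean in Cy5 only (37 and 16), and 7 to 11 with each pair left out. It was 15 (8 and 7) with no background subtraction and 12 (8 and 4) in the value table, with dim spots left out and with the median of spots, and 13 (9 and 4) without the odd array. The median of all probes was -0.07 with Lean in Cy3 only and 0.15 with Lean in Cy5 only, against 0.04.

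Under median centring the dye differences turned to 1.16 for C4 (adjusted p = 0.00804), 1.23 for C9 (0.0140) and 1.68 for C3 (0.00804, all limma), and under loess on all gene spots to 0.17 for C4 and 0.21 for C3, while that of C9 fell to -0.033 (adjusted p = 0.888, limma). With each dye-swapped pair left out, the dye difference ranged from -0.38 to -0.07 for C4, from -0.56 to -0.47 for C9 and from -0.11 to 0.059 for C3. The slide series difference, A minus B, of C3 turned to 0.071 under median centring and ranged from -0.12 to 0.014 with each pair left out, and those of C4 (-0.49 to -0.20) and C9 (0.19 to 0.37) kept their sign. Under median centring r was 0.62 for C4 against C9, 0.79 for C4 against C3 (permutation adjusted p = 0.0106) and 0.92 for C9 against C3 (0.000420), and -0.018 for the orientations of C9. For the orientations of C4 r was 0.88 under loess on all gene spots (adjusted p = 0.0702, permutation). In the value table r of C9 against C3 was -0.019 and that of C4 against C3 0.22 (adjusted p = 0.960), and under loess the latter was 0.36 (adjusted p = 0.511). Without the odd array of pair 10 r was 0.12 for C4 against C9 and 0.82 for C4 against C3. With each pair left out these ranged from -0.37 to 0.11 and from 0.17 to 0.81, the latter without pair 1 and without pair 10, and C9 against C3 from 0.14 to 0.43. The cause of these changes was not tested.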
